A study of Mus musculus with 106 samples.

Results

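H3K27ac, the acetylation of histone H3 at lysine 27, was read by ChIP-seq in bone marrow-derived macrophages (BMDMs) of control mice, with and without lipopolysaccharide (LPS) plus interferon-γ (IFN-γ). ChIP-seq pulls down DNA fragments with an antibody to the mark and lists the intervals where fragments pile up (peaks). The members were the 12 lists titled H3K27ac_nBMDM_M1_1 to 6 (LPS+IFN-γ, n = 6) and H3K27ac_nBMDM_ctrl_1 to 6 (unstimulated, n = 6), of 70 libraries with a peak list in a series of 106 samples that also covers H3K4me3, diabetic mice and hematopoietic stem cells. All 12 came from C57BL/6J mice labelled Control, 12 to 14 weeks old. Marrow cells were grown for 7 days in 5 mmol/L glucose with 20% L929 cell medium as a source of growth factor. They were then given IFN-γ at 10 ng/mL together with LPS at 100 ng/mL for 16 hours, or medium alone in the same glucose. The 16 hours are from the paper's general macrophage protocol, and its ChIP-seq section states no time. As a reference outside the comparison served 11 H3K27ac lists of diabetic BMDMs (6 LPS+IFN-γ, 5 unstimulated), cultured alike from mice given streptozotocin at 42 to 45 mg/kg for 5 days, with blood glucose above 13.9 mmol/L 6 weeks later. The labels do not tie a library to an animal, so p-values measure the spread between these libraries only.

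LPS is sensed by Toll-like receptor 4, which acts through NF-κB, AP-1 and interferon regulatory factors, and IFN-γ acts through Jak kinases and the transcription factors they phosphorylate. Together they turn a resting macrophage into a classically activated (M1) one that makes nitric oxide through Nos2, secretes inflammatory cytokines and presents antigen. H3K27ac marks active promoters and enhancers, and in macrophages many enhancers gain it within hours of such stimulation.

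Peaks were ranked within each list by the deposited −log10 p, with rank 1 the strongest, since the lists differ in length. A region or promoter was held by a library when it had a peak within the common list length of 54408 (the shortest list), and weaker or absent peaks were set to the next rank. Differences are mean log2 rank in unstimulated minus LPS+IFN-γ libraries, so that a positive value is a stronger peak with LPS+IFN-γ and 1 is a rank better by a factor of 2. Distal regions were merged from the top 20000 peaks of each list, held by at least 3 libraries and more than 1000 bp from every start site. Promoters were the 1000 bp to each side of a start site of a protein-coding gene. A gene with several start sites was given its best-ranked peak over all of them.

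The elements on which the results below turn are shown first. From the RefSeq promoter table (GRCm38), the 250 bases before the Socs1 start (chr16:10785537-10785786, minus strand) belong to the inhibitor of Jak kinases whose promoter had the largest positive control difference, on the p rank but not on the fold rank, of the 10 induced genes picked by the diabetic reference. The 250 bases before Oasl1 (chr5:114922990-114923239, plus strand) belong to the oligoadenylate synthetase-like gene with the smallest p of the induced lists. The distal windows are 300 bases around the summit of the strongest peak, on the plus strand of GRCm38. They hold no annotated exon of a protein-coding gene, and exons of other genes were not checked. They come from the region farthest upstream of Nos2 (chr11:78874315-78874614), from 1 near Acod1, which makes itaconate (chr14:103014897-103015196), and from 1 near Gpd2, the mitochondrial glycerol-3-phosphate dehydrogenase (chr2:57233147-57233446), where the 2 groups of libraries did not overlap. Capitals mark matches, on either strand, to 6 motifs: GAS (TTCNNNGAA), ISRE (GAAA in 2 copies with 2 bases between them), AP-1 (TGANTCA), PU.1 (GAGGAAGT), NF-κB (GGG and TTTCC with 2 bases between them) and C/EBP (TTGCNNAA).
Socs1 promoter: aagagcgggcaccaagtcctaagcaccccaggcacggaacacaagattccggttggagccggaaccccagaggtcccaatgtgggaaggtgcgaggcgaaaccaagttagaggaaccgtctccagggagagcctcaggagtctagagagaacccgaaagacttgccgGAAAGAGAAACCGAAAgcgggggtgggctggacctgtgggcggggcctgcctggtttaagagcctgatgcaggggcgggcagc
Oasl1 promoter: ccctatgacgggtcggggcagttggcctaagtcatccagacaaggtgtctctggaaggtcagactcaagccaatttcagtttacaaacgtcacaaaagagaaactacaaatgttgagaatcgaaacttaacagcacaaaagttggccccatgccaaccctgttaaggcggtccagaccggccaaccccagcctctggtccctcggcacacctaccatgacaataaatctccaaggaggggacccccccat
Nos2 distal: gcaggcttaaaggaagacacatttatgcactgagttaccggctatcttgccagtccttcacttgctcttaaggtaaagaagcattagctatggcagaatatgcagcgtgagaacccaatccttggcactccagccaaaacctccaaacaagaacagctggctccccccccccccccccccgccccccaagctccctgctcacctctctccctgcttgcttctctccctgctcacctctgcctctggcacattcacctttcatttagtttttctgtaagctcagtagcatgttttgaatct
Acod1 distal: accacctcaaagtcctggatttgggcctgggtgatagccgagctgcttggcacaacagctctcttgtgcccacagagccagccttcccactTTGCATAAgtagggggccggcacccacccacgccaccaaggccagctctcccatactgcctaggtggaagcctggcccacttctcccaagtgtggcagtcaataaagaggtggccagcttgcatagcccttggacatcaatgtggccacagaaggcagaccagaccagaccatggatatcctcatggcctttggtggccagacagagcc
Gpd2 distal: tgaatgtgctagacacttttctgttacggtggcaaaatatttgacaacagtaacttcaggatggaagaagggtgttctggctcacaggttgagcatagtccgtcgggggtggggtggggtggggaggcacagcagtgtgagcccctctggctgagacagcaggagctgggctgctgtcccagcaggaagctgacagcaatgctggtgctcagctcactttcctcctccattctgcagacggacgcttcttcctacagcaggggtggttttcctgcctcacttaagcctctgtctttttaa
The Socs1 promoter held 2 overlapping ISRE matches, GAAAGAGAAA at base 168 and GAAACCGAAA at base 174, and an ISRE match is found in 2.98% of the 32851 windows of this length in the table (978). The Acod1 window held 1 C/EBP match, TTGCATAA at base 92, which 6.44% of all 8943 distal windows hold. The other windows had no match.

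Peak lists carry no read totals, and sequencing depth is unknown. The 12 lists held 54408 to 176559 peaks covering 30.4 to 114 Mb, all with a q near or below 0.05. LPS+IFN-γ libraries had 127606 ± 38862 peaks (mean ± SD, n = 6) and unstimulated ones 118042 ± 42662 (n = 6), a log2 difference in peak number of 0.15 (two-sided exact permutation p = 0.649) that became −0.054 without unstimulated library 5, the shortest list, and −0.078 without the 3 libraries described next. The covered length was 73.2 ± 27.97 against 67.5 ± 26.42 Mb, a log2 difference of 0.13 (exact permutation p = 0.714), which was −0.015 without LPS+IFN-γ library 1, −0.075 without unstimulated library 5 and −0.13 without those 3. Among macrophage markers, the promoters of Spi1, Cebpa, Cd68, Fcer1g and Tyrobp were held in all 12 libraries, while those of Itgam (1 of 12), Lyz2 (3), Fcgr1 (4) and Adgre1 (5) were held in few. Of 15 markers of other cells, 10 were held by at least 3 libraries, against 9 of 10 macrophage markers. Lck and Klf1 were held in all 12 and Cd3e and Mpo in 0. Zbtb46 (6 LPS+IFN-γ and 4 unstimulated libraries), Flt3 (3 and 5), Pdgfra (4 and 4) and Pax5 (2 and 4) were held more often than Itgam, Lyz2, Fcgr1 or Adgre1. The remaining markers of other cells were held less often than Adgre1.

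Labels were kept as deposited, but 3 libraries went against theirs, unstimulated library 6 least clearly. In the diabetic reference, 367 of the 8943 distal regions (4.1%) had all 6 LPS+IFN-γ libraries above all 5 unstimulated ones, and 100 (1.12%) the reverse. Within the common length of these 23 lists (52470), LPS+IFN-γ libraries 1 to 6 of control BMDMs held 367, 338, 335, 356, 222 and 360 of the 367 regions. Unstimulated libraries 1 to 6 held 268, 222, 261, 178, 338 and 332. Library 5 of LPS+IFN-γ thus held as few as unstimulated library 2, while unstimulated libraries 5 and 6 lay with the LPS+IFN-γ libraries. Of the 100 regions that were lower, LPS+IFN-γ libraries held 78, 75, 65, 82, 98 and 91, and unstimulated ones 84, 95, 96, 94, 63 and 88. The log2 ratio of the median rank in the second set to that in the first was 0.60 to 1.53 in the other 5 LPS+IFN-γ libraries and −1.67 in library 5. It was −0.30 to −1.67 in unstimulated libraries 1 to 4, 1.00 in library 5 and 0.30 in library 6. Library 6 thus lay between the groups on this ratio. Its 88 regions of the second set were within the 84 to 96 of unstimulated libraries 1 to 4. Over all distal regions, the list closest to LPS+IFN-γ library 5 was unstimulated library 4 (Spearman rho = 0.57, n = 8943 regions), that closest to unstimulated library 5 was LPS+IFN-γ library 4 (0.45), and that closest to unstimulated library 6 was LPS+IFN-γ library 6 (0.57). LPS+IFN-γ library 2 was also closest to an unstimulated one, library 6 (0.53).

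**Figure D1:**
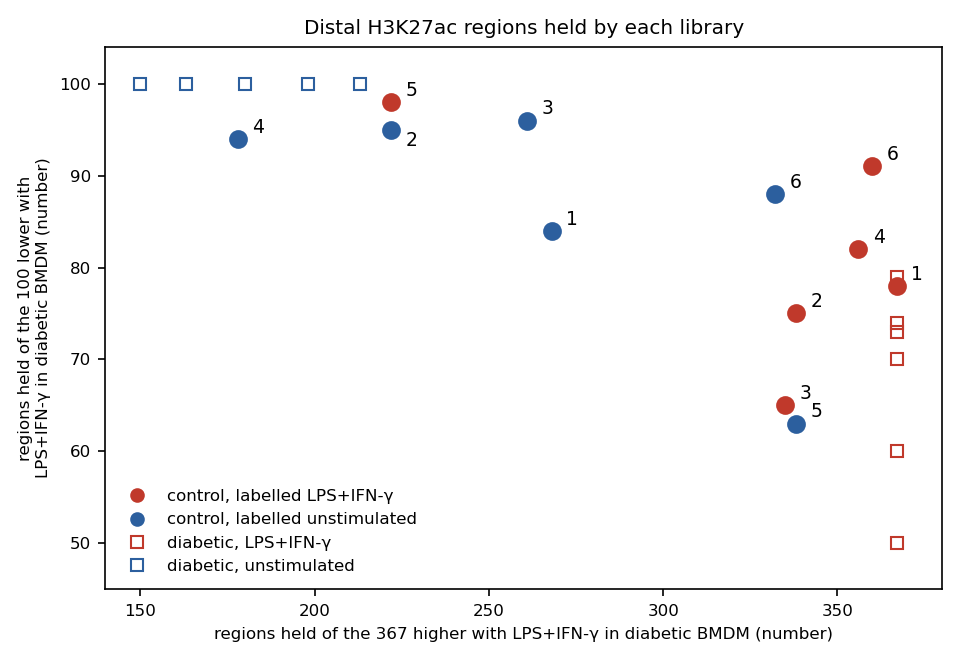
Number of distal regions held by each H3K27ac library (numbered points, control; open squares, diabetic), with the 367 regions higher in LPS+IFN-γ diabetic libraries on the x axis and the 100 lower ones on the y axis. LPS+IFN-γ library 5 (222 and 98) sits with unstimulated libraries 2 to 4, and unstimulated libraries 5 (338 and 63) and 6 (332 and 88) sit with LPS+IFN-γ ones; the squares were used to choose the regions.

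Promoters gave a weaker reading. Of 72 induced-list promoters, LPS+IFN-γ libraries had 47, 39, 45, 46, 28 and 56 at a better rank than the midpoint of the diabetic groups, and unstimulated ones 44, 25, 41, 26, 20 and 42. Library 5 of LPS+IFN-γ was again the lowest of its group, but unstimulated library 5 was the lowest of all 12. Of 15 resting-list promoters, the counts were 7, 3, 7, 8, 9 and 5 against 10, 9, 11, 10, 4 and 7. H3K4me3 lists of the same title numbers did not separate by label at 63 induced promoters (20 to 33 against 20 to 31). At the 367 and 100 distal regions, H3K4me3 library 5 of LPS+IFN-γ held 67 and 73, against 77 to 140 and 39 to 60 in the other 5, and unstimulated libraries 5 and 6 (83 and 62, 94 and 61) lay within the range of unstimulated libraries 1 to 4 (62 to 122 and 45 to 68). Results below are given with all 12 libraries and then, with no test, without these 3. Since the 3 were singled out at regions chosen in the diabetic reference, the second value cannot be read as support for that reference.

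Nos2, the inducible nitric oxide synthase, had more H3K27ac peaks around it in all but 1 of the LPS+IFN-γ libraries than in unstimulated libraries 1 to 4. In bulk chromatin, fewer cells with the mark and less mark per cell cannot be told apart. From 60 kb upstream to 45 kb downstream of its start (gene at chr11:78920787-78960254), LPS+IFN-γ libraries 1 to 6 had 33, 17, 26, 22, 4 and 23 peaks within the common length. Unstimulated libraries had 7, 6, 4, 5, 27 and 17. The covered lengths were 40.05, 10.9, 13.1, 15.7, 2.185 and 17.8 kb against 5.30, 3.77, 3.22, 2.34, 13.5 and 9.97 kb. The 3 libraries lay with the other label here, and without them the LPS+IFN-γ libraries had 17 to 33 peaks and the unstimulated ones 4 to 7. Since 4 of the 6 distal regions upstream of Nos2 are among the 367 at which the 3 were singled out, this is a description and no separate reading of them.

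**Figure D2:**
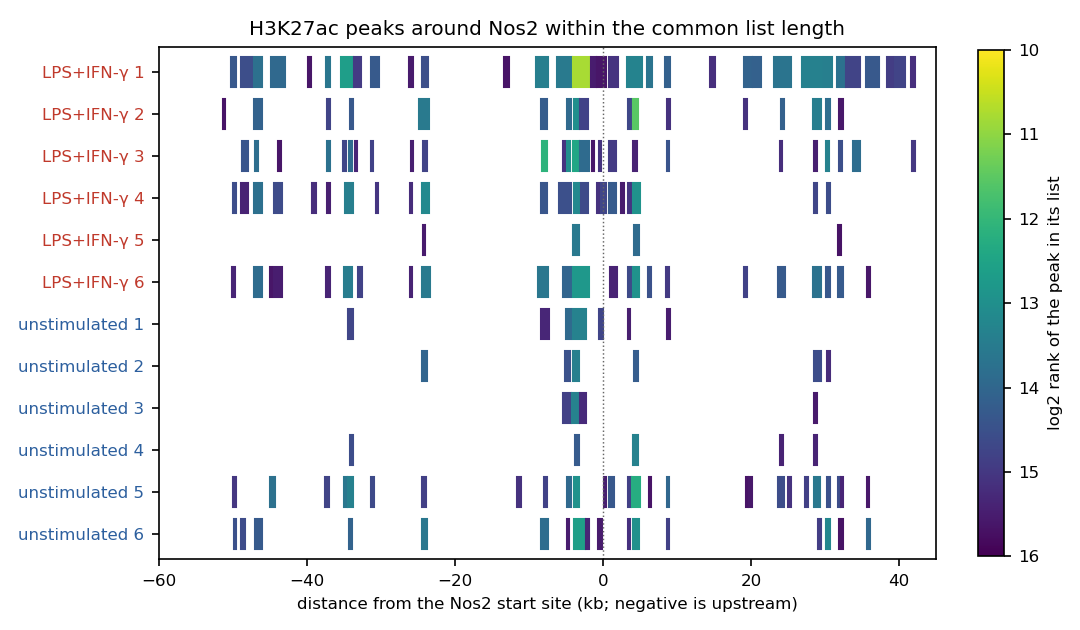
H3K27ac peaks within the common list length around the Nos2 start site, one row per control library, with distance from the start in kb on the x axis and colour for log2 rank (yellow strongest). Rows LPS+IFN-γ 1 to 4 and 6 carry 17 to 33 peaks, as do unstimulated 5 and 6 (27 and 17), against 4 to 7 in LPS+IFN-γ 5 and unstimulated 1 to 4.

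There were 6 distal regions within 50 kb upstream of Nos2, all intergenic (summit outside every protein-coding gene) and all with a positive difference. The farthest, chr11:78873607-78874759, 46028 bp from the start, had ranks of 14051, 18145, 14901, 14297, not listed and 15369 in LPS+IFN-γ libraries 1 to 6. It was not listed in unstimulated libraries 1 to 5 and had rank 20407 in library 6. Apart from LPS+IFN-γ library 5 and unstimulated library 6 it was thus held with LPS+IFN-γ alone, with a difference of 1.29 (SD of log2 rank 0.76 and 0.58, n = 6 and 6), an exact permutation p = 0.0152 and an adjusted p = 0.950 (Benjamini-Hochberg over all distal regions). Without the 3 libraries the difference was 1.83, and in diabetic BMDMs 1.88. No unstimulated library had this region among its top 20000 peaks, so it entered through LPS+IFN-γ libraries alone. The direction of its difference was partly set by this filter, and its p is no independent support for a response. The region at 7385 bp, chr11:78911766-78913402, had ranks of 11136, 19471, 4465, 21376, 107077 and 12562 against 41672, not listed in libraries 2 to 4, 28676 and 14956. Its difference was 1.28 (exact permutation p = 0.0498, adjusted p = 0.950), and 2.07 without the 3 libraries. The other 4 regions, at 1882, 4229, 23376 and 33697 bp, had differences of 0.61 to 0.80 (exact permutation p = 0.158 to 0.249) that became 0.92 to 1.64. The Nos2 promoter rank was the best over all annotated start sites of the gene. In LPS+IFN-γ library 3 it came from a peak at 798 to 1779 bp, and in unstimulated library 1 from −526 to −15 bp (negative is upstream). In the other libraries it came from a peak further inside the gene, at 4055 to 4771 bp in LPS+IFN-γ library 2. The ranks thus mix elements. The Nos2 promoter stood at 10185, 3030, 31618, 7685, 15517 and 7840 against 28061, 19591, 60220, 10608, 4938 and 8154. These groups overlapped, with a difference of 0.63 (exact permutation p = 0.370), 1.40 without the 3 libraries and 1.01 in diabetic BMDMs. With 1 library left out it ran from 0.27 (without unstimulated library 3) to 0.97 (without LPS+IFN-γ library 3).

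Across the genome, 0 of 8943 distal regions (0%) passed an adjusted p under 0.05 (smallest 0.950). By the unadjusted exact permutation p, 414 (4.63%) were under 0.05, 343 higher with LPS+IFN-γ (3.84%) and 71 lower (0.794%). With limma on log2 rank, 0 passed and 479 were under 0.05 before adjustment. The smallest p that 6 against 6 libraries allow is 0.00216, so that at least 388 regions at that p would have been needed for a call. Groups did not overlap at 13 regions, all higher with LPS+IFN-γ (0.145% of those tested), and at 0 lower. Labels arranged at random give no overlap, in either direction, at a share of at most 0.00216, and 0.145% is not above it. Of all distal regions 59.5% had a positive difference, with a median of 0.10. Without the 3 libraries, 411 regions (4.6%) had all 5 LPS+IFN-γ libraries above the 4 unstimulated ones and 126 (1.41%) the reverse.

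The strongest of the 13 lay in an intron of Rhoh, a GTPase-deficient signalling protein of blood cells (chr5:65871103-65872029). It ranked 16997, 14414, 14619, 19745, 18715 and 18059 with LPS+IFN-γ and 113699, 40205, 96822, not listed, not listed and 72509 without. The difference was 1.61 (SD 0.19 and 0.18), against 0.25 in diabetic BMDMs. Only unstimulated library 2 held it, and the other unstimulated libraries were set to the same rank past the common length. The SD of 0.18 is therefore no measured spread, and the difference is bounded by that rank. An intronic region of Pde10a, a cyclic nucleotide phosphodiesterase (chr17:8868377-8869939), ranked 14533, 11066, 15062, 12128, 13449 and 14349 against 29358, 124492, 43312, 66538, not listed and 18545, a difference of 1.56 (0.78 in diabetic BMDMs). In both, every LPS+IFN-γ library lay above every unstimulated one, as the choice of these regions requires.
The Gpd2 region (chr2:57232919-57233869, intergenic, 3766 bp from the start) ranked 15802, 13171, 10137, 13444, 9694 and 11489 against 20503, 23225, 60052, 25094, 45753 and 22878, a difference of 1.29 and of 0.59 in diabetic BMDMs. A region in an intron of Tnip1, a partner of A20 that restrains NF-κB (chr11:54923550-54925316), ranked 13272, 10526, 13228, 11918, 14403 and 12488 against 54656, 29540, 22083, 33098, 25953 and 15443. Its difference was 1.15 (SD 0.16 and 0.61), and it was 1.25 in diabetic BMDMs, the largest there among these 10. The other 6 named by the rule lay nearest to Tmem44, Prr5l, Cep78, Znrf1, Ptpn1 (a phosphatase that acts on Jak kinases) and Bach1 (a heme-binding repressor), with differences of 1.07 to 1.37, and of −0.20 to 0.79 in diabetic BMDMs. All 10 had the smallest p possible (0.00216, exact permutation) and an adjusted p of 0.950. Of these 10, only the Pde10a and Tnip1 regions had an unstimulated peak among the top 20000 of its list. The others entered through LPS+IFN-γ libraries alone, so the direction of their difference was partly set by this filter. Their p and lack of overlap are therefore no independent support for a response.
Of regions lower with LPS+IFN-γ, the 10 with the smallest p had differences of −0.65 to −1.21 (exact permutation p = 0.00649 to 0.0152, adjusted p = 0.950) and overlapping groups. The Sox4 region (chr13:28957917-28960000), near a transcription factor of progenitors, ranked 16910, 15583, 26604, 13774, 11425 and 13112 against 12591, 8116, 8588, 9040, 11499 and 10780. Its difference was −0.65, and only unstimulated libraries 1 and 5 were weaker than the strongest LPS+IFN-γ library, number 5. The others were nearest to Bclaf3, Synpo2l, Ostm1, Psd2, Afg3l2, Fbxo31, Ccl28, Mcfd2 and Mylk4. Those near Ostm1, Mcfd2 and Mylk4 had no LPS+IFN-γ peak among the top 20000 and entered through unstimulated libraries alone, with the same limit.

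Near the 88 annotated genes of the induced lists, 64 distal regions lay within 50 kb of 29 genes. Of these, 49 had a positive difference, against 59.5% of all distal regions. An unadjusted exact permutation p under 0.05 was found at 6 of the 64, all 6 higher with LPS+IFN-γ, against 3.84% of all regions in that direction. Groups overlapped at all 64. Their median difference was 0.28, against 0.10 over all distal regions, and 0.61 without the 3 libraries. The 6 were the pair upstream of Nos2 and regions near Socs1 (1.47), Il27 (1.00), Irf7 (0.80) and Oasl1 (0.72). By list the medians were 0.70 for effectors and cytokines (13 regions), 0.79 for interferon-induced GTPases and antiviral genes (6), 0.25 for chemokines (8), 0.25 for transcription factors and signalling (30) and −0.23 for antigen presentation (7). Around the 15 resting macrophage genes, 19 regions had a median of −0.14, and 0 had a p under 0.05.

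The Acod1 region, chr14:103014304-103015687, ranked 4988, 10873, 5346, 10429, 97789 and 10219 with LPS+IFN-γ and 28317, 74381, 17716, 77158, 11266 and 16347 without. Only LPS+IFN-γ library 5 crossed into the other group. Its difference was 1.22 (exact permutation p = 0.0844), 2.14 without the 3 libraries and 2.31 in diabetic BMDMs. The promoter of Acod1, in contrast, was within the common length in 0 LPS+IFN-γ libraries and 1 unstimulated one. A region 44379 bp from Socs1, in an intron of Clec16a (chr16:10739765-10741157), ranked 11396, 6847, 7533, 22821, 18884 and 11205 against 102244, 74193, 106919, not listed, 13921 and 10504. There, unstimulated libraries 5 and 6 ranked with the LPS+IFN-γ group and LPS+IFN-γ library 5 did not stand apart. The difference was 1.47 (exact permutation p = 0.0303, adjusted p = 0.950) and 2.33 without the 3 libraries. Near Ccl5, the chemokine RANTES, a region at 4459 bp (chr11:83534977-83536471) had a difference of 0.97 (exact permutation p = 0.147) and 2.04 in diabetic BMDMs.

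Of the 367 regions higher with LPS+IFN-γ in diabetic BMDMs, 340 (92.6%) had a positive control difference with all 12 libraries, against 59.5% of all distal regions. Their median was 0.59, against 0.10 over all distal regions. Without the 3, 348 (94.8%) were positive, with a median of 1.01. Of the 100 lower ones, 79 (79%) were negative with all 12, with a median of −0.31, and 90 (90%) without the 3, with a median of −0.69. All distal regions were drawn from the control lists, so a region strong in 1 control group alone entered through that group. The sign of its control difference was then partly set by this filter, and these shares are no independent support. With all 12 libraries, groups of control libraries did not overlap at 0 of the 367 and 0 of the 100, against 13 higher and 0 lower of all distal regions (0.145% and 0%). Without the 3 they did not overlap at 102 of the 367 and 19 of the 100, against 411 higher and 126 lower of all (4.6% and 1.41%), where the libraries left out had been singled out at these same regions. Over all 8943 distal regions the control and diabetic differences, which share no library, had a Spearman rho of 0.41 with all 12 control libraries and 0.49 without the 3. At promoters it was 0.33 and 0.42 (n = 14471). These values describe regions that share libraries and neighbourhoods and carry no p.
The region with the largest diabetic difference, in the body of the ubiquitin ligase gene Ubr4 (chr4:139440013-139443983), ranked 1609, 738, 706, 3782, 32437 and 2365 with LPS+IFN-γ and 41597, 39964, 19917, 18363, 7527 and 4297 without. It was named after its values were seen. It is one of the 367 at which the 3 libraries were singled out, and LPS+IFN-γ library 5 and unstimulated libraries 5 and 6 lay nearer to the other label. The control difference was 2.72 (exact permutation p = 0.0217, adjusted p = 0.950), 4.22 without the 3 and 3.59 in diabetic BMDMs.
In 1000 bp around the summit, the 367 regions held an ISRE match in 15.3%, a GAS match in 27.2% and an NF-κB match in 7.63%, and all 8943 regions in 12.4%, 24.8% and 5.58%. The 100 lower regions held them in 6%, 21% and 3%. AP-1, PU.1 and C/EBP matches were found in 31.3%, 8.17% and 33.8% of the 367 and in 29.8%, 9.74% and 29.2% of all. In the 300 bp window these shares lay closer together, with ISRE in 2.18% of the 367 and 1.99% of all, GAS in 6.27% and 6.13%, and NF-κB in 2.18% and 1.63%, and the 100 lower regions held GAS in 7%.

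**Figure D3:**
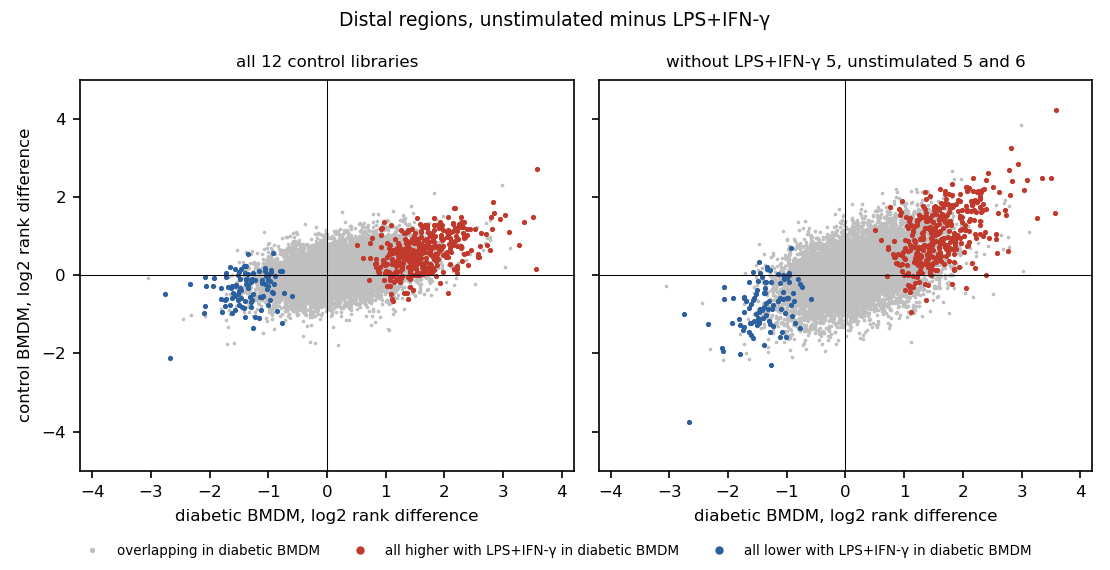
Difference in log2 rank (unstimulated minus LPS+IFN-γ) of 8943 distal regions in diabetic BMDMs (x axis) and in control BMDMs (y axis) with all 12 control libraries (left) or without the 3 that went against their labels (right). Red and blue points are the 367 and 100 regions whose diabetic groups did not overlap, and their medians on the y axis were 0.59 and −0.31 on the left and 1.01 and −0.69 on the right.

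At promoters, 0 of 14471 tested (0%) passed an adjusted p under 0.05, and 480 (3.32%) had an unadjusted p under 0.05, 251 higher with LPS+IFN-γ (1.73%) and 229 lower (1.58%). With limma these numbers were 0 and 511. At least 627 at the smallest p possible would have been needed for a call. Groups did not overlap at 22 promoters (0.152%), 12 higher (0.0829%) and 10 lower (0.0691%). Without the 3 libraries they did not overlap at 223 higher (1.54%) and 258 lower (1.78%). The groups of the diabetic reference did not overlap at 137 promoters higher (0.947%) and 241 lower (1.67%). Over the induced lists 73 promoters were tested, and 55 had a positive difference, against 46.7% of all promoters. Their median was 0.31, against −0.03 over all promoters tested and 0.41 without the 3 libraries, where the number of positive promoters fell to 49. Without the 3, groups did not overlap at 6 of the 73 in the direction of LPS+IFN-γ and at 3 in the other. Of the 73, 5 had an unadjusted p under 0.05 in the direction of LPS+IFN-γ and 1, Relb, in the other.

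**Figure D4:**
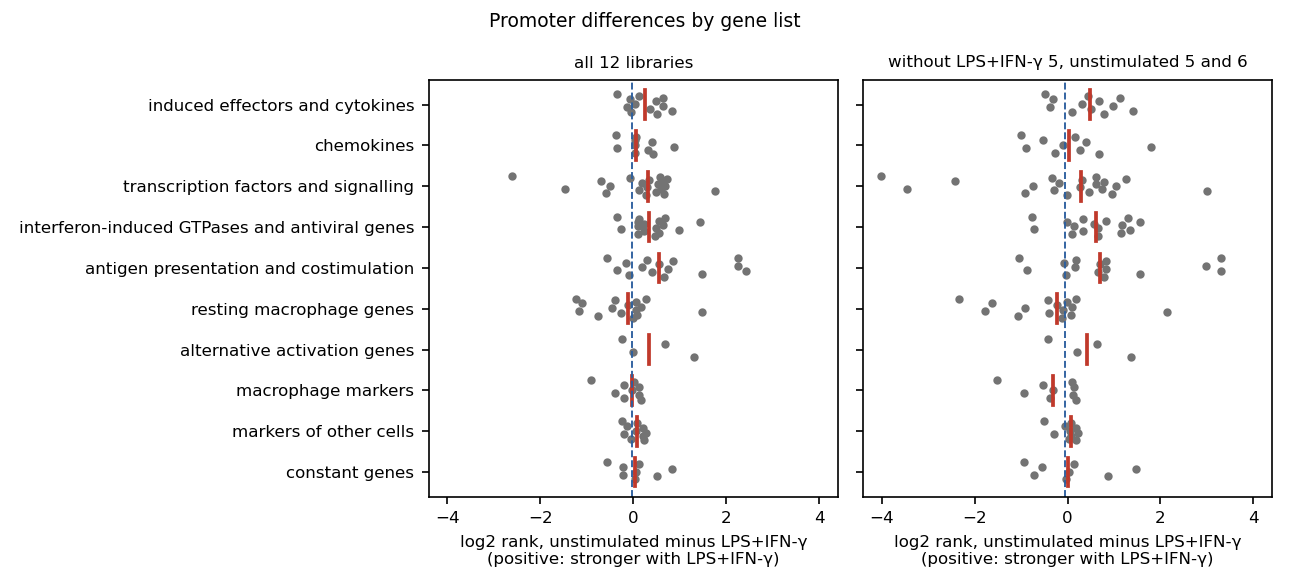
Difference in log2 rank at tested promoters (points) by gene list, with all 12 libraries (left) and without the 3 that went against their labels (right). Red bars are list medians, from −0.11 for resting genes to 0.55 for antigen presentation on the left, and the dashed line is the median of all promoters tested.

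Antigen presentation and costimulation had the highest median, 0.55 over 15 promoters, of which 11 were positive, against 46.7% of all promoters, and 4 were higher with an unadjusted p under 0.05, against 1.73% of all. Of these 4, Tap1 and Psmb9 are 1 peak. Psmb8, a subunit of the immunoproteasome, ranked 682, 813, 24, 1034, 2214 and 1157 with LPS+IFN-γ and 3372, 1642, 5538, 4723, 3584 and 1664 without. The groups met only where LPS+IFN-γ library 5 fell behind unstimulated libraries 2 and 6, and the difference was 2.43 (SD 2.32 and 0.74, exact permutation p = 0.00649, adjusted p = 1). Tap1, a chain of the transporter that loads peptides onto MHC class I, and Psmb9, another immunoproteasome subunit, share a promoter and its peak, which ranked 737, 75, 944, 484, 4476 and 772 against 8371, 5076, 3378, 2851, 1474 and 1718. Here library 5 of LPS+IFN-γ stood among the unstimulated ones, and the difference was 2.26 (exact permutation p = 0.0195), 3.31 without the 3 libraries and 1.74 in diabetic BMDMs. The H2-Ab1 promoter, of a chain of MHC class II, ranked 6155, 4470, 2408, 2649, 7985 and 10179 against 8003, 8624, 7905, 69777, 19988 and 10804, a difference of 1.47 (exact permutation p = 0.0173) that was 0.64 with promoters of 2500 bp and 2.08 when ranked by fold. Cd274, which encodes PD-L1, spread from 111 to 10174 with LPS+IFN-γ and from 1259 to 8795 without. Its difference of 0.65 (exact permutation p = 0.610) lay within that spread and was −0.19 without LPS+IFN-γ library 1, while it was 2.74 in diabetic BMDMs.

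Interferon-induced GTPases and antiviral genes had a median of 0.35 over 16 promoters, 14 of them positive. Oasl1 ranked 2992, 8127, 835, 4980, 7749 and 5974 with LPS+IFN-γ and 11053, 10810, 9677, 11003, 8025 and 17739 without. Only LPS+IFN-γ library 2 and unstimulated library 5 crossed, and the difference was 1.43 (SD 1.24 and 0.38, exact permutation p = 0.00433, adjusted p = 1). Gbp7, a guanylate-binding protein, ranked 1230, 2986, 5420, 6994, 8743 and 4056 against 6818, 7851, 9842, 10830, 3654 and 2472. Unstimulated libraries 1, 2, 5 and 6 lay inside the LPS+IFN-γ range, and the difference of 0.56 (exact permutation p = 0.323) became 1.29 without the 3 libraries and was 2.61 in diabetic BMDMs. The Irgm1 promoter, of an immunity-related GTPase, had a difference of −0.25 (ranks 7728 to 35134 against 3230 to 43969) where diabetic BMDMs had 2.05, and it turned to 0.14 without unstimulated library 1 and to 0.042 with promoters of 2500 bp. Gbp2, Gbp5, Ifit1 and Ifi44 were held by too few libraries to test.

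Among transcription factors and signalling genes the median was 0.31 over 20 promoters, all 20 held in every library. The Socs1 promoter ranked 1792, 383, 659, 78, 4052 and 321 with LPS+IFN-γ and 7263, 2843, 1665, 3338, 1976 and 300 without. LPS+IFN-γ library 5 was the weakest and library 4 the strongest of their group, and unstimulated library 6 was the strongest of its group. The Socs1 difference was 1.76 (SD 2.00 and 1.54, exact permutation p = 0.13), 3.0 without the 3 libraries and 2.64 in diabetic BMDMs. Ranked by fold, it was 0.45. Stat3 ranked 40 to 1682 against 197 to 977, a difference of 0.66 (exact permutation p = 0.476). Relb, the NF-κB subunit of the noncanonical pathway, went the other way: it ranked 1586, 1890, 180, 479, 343 and 220 with LPS+IFN-γ and 7, 26, 106, 76, 859 and 302 without. All 12 ranks were 1890 or better, unstimulated libraries 1 to 4 were stronger than every LPS+IFN-γ library, and the difference was −2.61 (exact permutation p = 0.0498, adjusted p = 1), −4.02 without the 3 libraries and −4.47 in diabetic BMDMs. Other negative members were Nfkb2 (−1.46), Rel (−0.59), Nfkbia (−0.50) and Irf1 (−0.06), with exact permutation p of 0.242 to 0.920.

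Effectors and cytokines had a median of 0.25 over 12 tested promoters of 20, 8 of them positive. Ptgs2, the inducible prostaglandin synthase, ranked 1610, 1639, 1962, 4665, 6630 and 3666 against 4150, 3799, 9733, 5542, 9053 and 2549, with library 5 the weakest of the LPS+IFN-γ group. Its difference was 0.84 (exact permutation p = 0.104), and 1.87 in diabetic BMDMs. The promoters of Il1b, Il6, Il1a, Saa3, Ifnb1, Acod1, Fpr2 and Marco were held by at most 2 libraries. Chemokines had a median of 0.05 over 10 tested promoters. Ccl5 ranked 13489, 18281, 5469, 14227, 68253 and 11269 against 22114, 40905, 72738, 67165, 10620 and 16288, so that LPS+IFN-γ library 5 and unstimulated libraries 5 and 6 lay nearer to the other label. The difference was 0.88 (exact permutation p = 0.180), 1.79 without the 3 libraries and 2.08 in diabetic BMDMs. Cxcl9 and Ccl12 were held by 0 libraries.

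**Figure D5:**
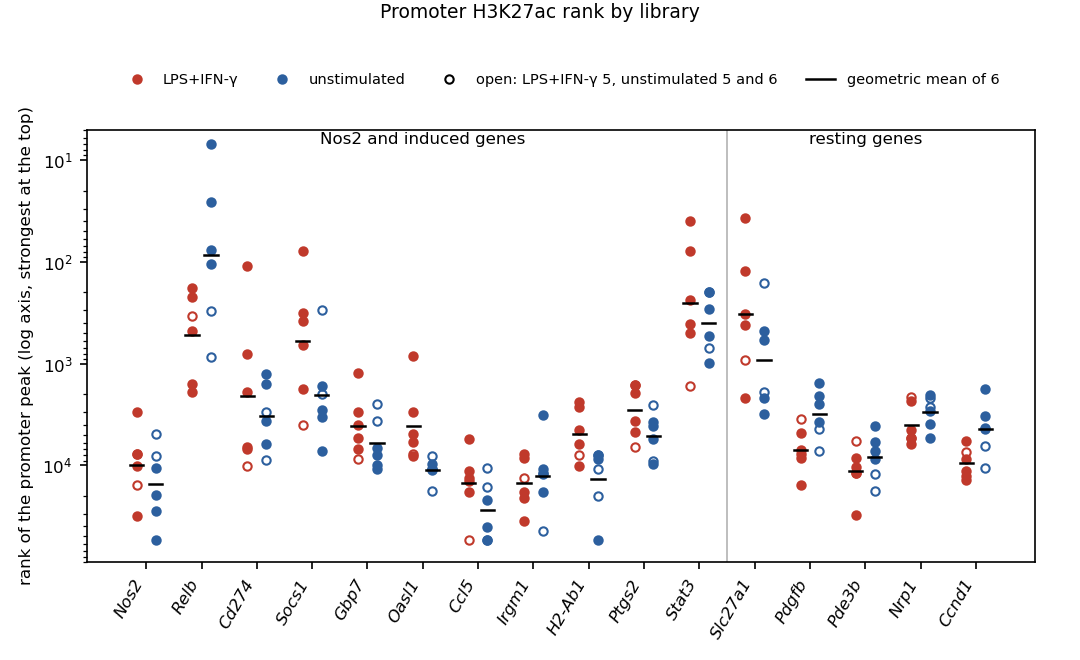
Rank of the promoter peak (log axis, strongest at the top, ranks past 54408 drawn at 54409) for Nos2 and the 10 induced and 5 resting genes with the largest diabetic differences, by library and label, with bars for the geometric mean of 6. Open points are LPS+IFN-γ library 5 and unstimulated libraries 5 and 6; Oasl1 (4090 against 11040) and H2-Ab1 (4925 against 13630) are the 2 induced genes shown with an unadjusted p under 0.05 and stronger with LPS+IFN-γ.

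Resting macrophage genes, which mark cells before stimulation, had a median of −0.11 over 15 promoters and −0.23 without the 3 libraries, 9 of 15 being negative, against −0.03 over all promoters, and the median turned to 0.018 without unstimulated library 2. Pdgfb, a growth factor chain, ranked 4790, 8423, 15594, 7117, 3546 and 7810 with LPS+IFN-γ and 2524, 3797, 2072, 1552, 4400 and 7284 without. Ccnd1, the G1 cyclin D1, ranked 11464, 12649, 14000, 5805, 7349 and 8673 against 4360, 1799, 4328, 3268, 10591 and 6442. In both genes unstimulated libraries 1 to 4 lay among the strongest, and the differences were −1.16 and −1.10 (exact permutation p = 0.0303 and 0.0238, adjusted p = 1), or −1.78 and −1.63 without the 3 libraries. Pde3b (−0.45) and Nrp1 (−0.40), the semaphorin co-receptor, were smaller (exact permutation p = 0.359 and 0.275). Slc27a1, a fatty acid transporter put on this list, was positive at 1.48 (exact permutation p = 0.199) and at 1.95 in diabetic BMDMs. Of 8 alternative activation genes 4 were tested, with a median of 0.35 and 0 with a p under 0.05. Chil3, Retnla and Mgl2 were held by 0 libraries. The 8 constant genes had a median of 0.05.

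Of the 12 promoters higher in every LPS+IFN-γ library, Nktr, a cyclophilin-related protein, ranked 873, 494, 118, 209, 602 and 451 against 1735, 2017, 1441, 1170, 1256 and 1867. This was a difference of 2.04 (SD 1.06 and 0.32), against −0.31 in diabetic BMDMs. Dnah1, an axonemal dynein, ranked 20823, 11865, 15808, 11240, 18647 and 18876 against 34075, 35145, 35174, 50063, 35624 and 33529, a difference of 1.22, against 0.16 in diabetic BMDMs. The shared promoter of Cept1, a phospholipid synthesis enzyme, and Dram2, an autophagy-related membrane protein, had a difference of 1.167, and 1.13 in diabetic BMDMs. The others named were Ube2z (1.08), Tcp11l1 (0.87), Btbd2 (0.87), the shared promoter of Ncbp1 and Tstd2 (0.76), and Lss (0.38), and none of these genes is in an induced list.
Of the 10 lower in every LPS+IFN-γ library, Ppm1a, a phosphatase, ranked 2757, 2805, 3969, 1904, 1761 and 2463 against 772, 867, 24, 1491, 1154 and 858, a difference of −2.23. Rbpj, the DNA-binding factor of Notch signalling, ranked 2584, 1925, 2701, 1263, 1646 and 1046 against 562, 403, 607, 370, 385 and 956, a difference of −1.77 (SD 0.55 and 0.53), and −1.48 in diabetic BMDMs. S100a4, a calcium-binding protein, ranked 27955, not listed, 38523, not listed, 51243 and 49583 against 11731, 20067, 21828, 20505, 17230 and 24953, a difference of −1.25, and 0.32 in diabetic BMDMs. The remaining ones were Mob1a (−1.57), Dgka (−0.92), the shared promoter of D930048N14Rik and N4bp3 (−0.90), Zscan18 (−0.83), Gmds (−0.75) and Bsn (−0.39). All 22 had the smallest exact permutation p possible (0.00216) and an adjusted p of 1. In each, the 3 libraries lay on the side of their own label, as the choice of these promoters requires. Labels arranged at random give no overlap, in either direction, at a share of at most 0.00216. The 22 are 0.152% of promoters, which is not above that share, so they are no support for a response.

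Whether the control response differed from the diabetic one was tested per promoter by exchanging disease labels within each treatment. Of 14471 promoters 0 (0%) passed an adjusted p under 0.05 (smallest 0.712), and 681 (4.71%) had an unadjusted permutation p under 0.05. Differences of the named genes between control and diabetic BMDMs, such as Irgm1 or Nktr, are therefore given as values only.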

How the data were processed

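H3K27ac ChIP-seq libraries were sequenced as 50 bp single reads, and the authors deposited 1 narrowPeak list per library, called against the input of the same cells. The submitters' processing notes name Trim Galore 0.3.3, cutadapt 1.8, FastQC 0.11.3, Bowtie2 2.2.6, Picard 2.19.2 and 2.18.14, bedtools 2.19.1 and MACS2 2.2.7.1, with GRCm38 and mm10 as builds. Per the file headers' column order, the deposited values are a score, a fold enrichment ratio at the summit, and −log10 p and −log10 q, which rate a peak within its own list. Summits of 1 numbered interval were taken as 1 peak with its best values, and only ranks within a list were compared. Broad or weak signal below the authors' q limit is not seen.

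Groups follow the titles. Values of a few list members are not reported here. Start sites were those of GENCODE M21 (93513 sites of 21938 protein-coding genes); Cxcl11 is not among them. Differences in mean log2 rank were tested with two-sided exact permutation over all arrangements of 12 libraries, and over 426888 for the difference from diabetic BMDMs, with Benjamini-Hochberg adjustment over all features. Members, gene lists and tests were chosen with earlier results of these data known. Genes named in every library are the 10 induced and 5 resting genes with the largest diabetic difference in either direction, the 10 promoters and 10 distal regions with the largest difference in each direction among those that do not overlap (else the smallest p), and Nos2; Psmb8, Tap1 and Psmb9 were added after their values were seen, and distal regions near list genes by the size of the diabetic difference. Alternatives left out libraries, blocked on the replicate number, ranked by fold, or changed promoter width, overlap, q limit, list length and regions, and limma 3.58.1 was run on log2 rank. Scripts were tested on simulated ranks and run with Python 3.11.15, numpy 2.4.6 and R 4.3.3.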

Additional observations from a re-analysis of the deposited data

Results flagged for a closer look

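Within groups of 6 libraries, the lowest or highest library is given here where it exceeded Dixon's 95% limit. The limit applies to the distance to its neighbour relative to the whole range. Chance exceeds it in about 1 of 20 groups whose values are not tied. Of all 152 groups tested 24 exceeded it, and many of them share peaks or libraries. LPS+IFN-γ library 5 stood apart in the number of diabetic-chosen higher regions it held (222) and in the log2 ratio of median ranks (−1.67), and it was the weakest at the Nos2 region farthest from the start (log2 rank 15.73), at the Acod1 region (15.73), at the Socs1 region at 41952 bp (14.82) and at the Oasl1 region at 1259 bp (15.15). Unstimulated library 6 was the only one of its group listed at the first of these (14.32), and unstimulated library 5 held the fewest diabetic-chosen lower regions (63). Unstimulated library 1 had the lowest share of its top 10000 peaks at a start site (80.3%).

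Single libraries also stood apart at promoters by log2 rank: unstimulated 4 at Dnah1 (15.61), LPS+IFN-γ 4 and unstimulated 1 at the promoter of Cept1 and Dram2 (8.20 and 12.31), LPS+IFN-γ 2 at Btbd2 (10.11), unstimulated 3 at Ppm1a (4.58) and LPS+IFN-γ 3 at the promoter of D930048N14Rik and N4bp3 (13.52). At distal regions they were unstimulated 2 near Rhoh (15.30), unstimulated 3 near Tmem44 (14.80), LPS+IFN-γ 2 and unstimulated 1 near Bclaf3 (15.73 and 12.61), LPS+IFN-γ 4 near Ostm1 (14.64) and LPS+IFN-γ 4 near Mylk4 (15.72). Near Rhoh and Mylk4, and at the Nos2 region farthest from the start in unstimulated libraries, all other libraries of the group were set to the same rank past the common length. The limit was passed there by construction. Near Mylk4 the SD of log2 rank with LPS+IFN-γ was 0.003, so library 4 hardly differed.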

How the results depend on the processing

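Under each alternative with a test, 0 promoters and 0 distal regions were called, and 0 promoters differed from the diabetic response, with 363 to 760 promoters and 80 to 734 distal regions at an unadjusted p under 0.05; limma called 0 of each (511 and 479 unadjusted). The medians of the induced lists (0.25 to 0.41) and of the resting list (−0.29 to 0.02, positive without unstimulated library 2) moved by less than the SD of the list's median log2 rank between libraries of a group (0.142 and 0.391). The numbers grew with fewer libraries, as their construction allows: promoters that do not overlap from 22 to between 28 and 70 with 1 library left out (over 1.5 times for each library but unstimulated 4, and 70 without LPS+IFN-γ 5) and to 481 without the 3 libraries, and distal regions that do not overlap from 13 to between 13 and 89 (over 1.5 times for each library but LPS+IFN-γ 1 and 6 and unstimulated 4, and 89 without LPS+IFN-γ 5) and to 537. Ranking by fold gave 12 promoters and 21 distal regions, regions of the top 10000 peaks gave 1, and regions held by at least 1 library gave 25. The rho with the diabetic response was 0.25 (without LPS+IFN-γ 1) to 0.51 (without LPS+IFN-γ 5) with 1 library left out, 0.49 without the 3, 0.30 by fold, 0.55 with regions of the top 10000 peaks and 0.32 with regions held by at least 1 library; the cause was not tested. The log2 difference in peak number ran from −0.054 to 0.28 with 1 library left out and was −0.078 without the 3, and that in covered length ran from −0.075 to 0.32 and was −0.13. Of 1160 values of 68 named promoters and regions 3 turned: the Cd274 promoter to −0.19 without LPS+IFN-γ 1 (up to 1.11 without LPS+IFN-γ 5), and the Irgm1 promoter to 0.14 without unstimulated 1 (down to −0.61 without unstimulated 5) and to 0.042 with promoters of 2500 bp.

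The title numbers were not shown to pair libraries: deviations of same-numbered libraries from their group means correlated at 0.42, 0.10, 0.07, 0.26, −0.24 and 0.19 for numbers 1 to 6, and 2 of 6 numbers were closest to their own. With the replicate block (64 arrangements, smallest p 0.0312) a call would have needed 9045 promoters at the smallest p, so that the 0 called says nothing of stability; 363 and 221 had an unadjusted p under 0.05, and p was 0.562 for peak number (log2 difference 0.15) and 0.688 for covered length (0.13).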
